A study of Mus musculus with 6 samples.

Results

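Adrenomedullin (Adm) and 9 genes of the response to low oxygen were read in the uterine epithelium of early pregnant mice. The members were every probe set on the array whose platform annotation names Adm, Vegfa, Hif1a, Epas1, Egln1, Egln3, Car9, Ndrg1, Bnip3 or Ankrd37. The rule uses gene names only, but the genes and lists were chosen with earlier results of these data known. Counts of members called, set beside shares of all probe sets, are therefore not an independent test of the set. All 10 genes were found, among 18193 genes in all, with 22 probe sets of the 34945 that carry a single gene symbol. Hif1a had 4 probe sets, Ndrg1 had 5, Adm, Vegfa, Epas1, Egln1 and Egln3 had 2 each, and Car9, Bnip3 and Ankrd37 had 1 each. Probe sets of a gene read the same RNA and are not replicates.

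Cells sense oxygen through a pair of related transcription factors, HIF-1α (Hif1a) and HIF-2α (Epas1). When oxygen is ample, prolyl hydroxylases such as EGLN1 and EGLN3 mark both proteins for destruction through the VHL ubiquitin ligase, and when oxygen is scarce the proteins persist, pair with ARNT and bind the core motif of hypoxia response elements. Target genes act in blood vessel growth (Vegfa), glycolysis, pH control (Car9) and the removal of mitochondria (Bnip3), and EGLN3 itself is a target. Adrenomedullin is a secreted peptide that widens vessels, is induced by hypoxia, and has been studied in the uterus for its part in fertility and implantation. Because the HIF-α proteins are controlled mainly by their stability, their mRNA is not a measure of their activity.

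The study used 6 samples on 1 Affymetrix array each, 2 in each of 3 groups. Arrays 302 and 303 held wild-type (WT) females at day 1 of pregnancy, arrays 277 and 284 held WT at day 4, and arrays 253 and 281 held Sox17GFP/+ females, heterozygous mutants in which GFP marks 1 Sox17 allele, also at day 4. Day 1 was the day of the vaginal plug. SOX17 is an SRY-box transcription factor active in that epithelium. The labels used here state neither strain nor age. The epithelium was freed from uterine pieces with pancreatin and dispase. The numbers look like those of animals, but no label says so, so p-values measure only the spread between these samples, which may be technical.

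Values are probe set signals on a linear scale, with the same trimmed mean of 500 on every array, and no detection calls were used, so that values below 50 are taken as low. The median was 138 on array 277 and between 66.2 and 78.0 elsewhere. All 9 measured epithelium markers read above 50 on every array. Sox17 itself read 22781 and 18473 on the WT day 4 arrays and 13304 and 13061 on the heterozygous ones at 1 probe set (-0.64 ± 0.23, adjusted p = 0.407). The other had 34794 and 35060, then 30189 and 28810 (-0.24 ± 0.22, adjusted p = 0.654). Neither passed, and no label tells whether RNA of the GFP allele is detected by them. Changes below are on the log2(signal + 1) scale, ± the SE from limma, with 2 arrays per group, and p-values are limma's with Benjamini-Hochberg adjustment over all 34945 probe sets.

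The sequence before the start of these genes is given first, because the core motif bound by the HIF proteins is the feature by which most of them are known. RefSeq promoter entries (build GRCm38.p6) were matched by symbol for 8 of the 10 genes, and Epas1 and Ndrg1 had none. The letters ACGTG and GCGTG were searched on both strands in the 250 bases before each start. A match was present for 8 of 8 genes, and for 41.5% of the 27025 genes with an entry in the table. Vegfa had 2 entries, 1 with matches and 1 without. The stretches below are those of Adm, of 4 genes whose signals were lower on day 4, and of Hif1a, whose signals were higher. Bases run 5′ to 3′ on the gene's strand and end at the base before the start, except for Egln3, where the first 60 of the 250 bases are shown. Capitals mark matches, and CACGC and CACGT are the motif read on the opposite strand.
Adm, chr7:110627507-110627656, plus strand: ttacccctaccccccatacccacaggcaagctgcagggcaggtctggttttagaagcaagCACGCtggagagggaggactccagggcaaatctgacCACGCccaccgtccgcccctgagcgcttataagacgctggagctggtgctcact
Egln3, chr12:54204065-54204124, minus strand: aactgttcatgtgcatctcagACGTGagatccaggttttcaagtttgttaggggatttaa
Ankrd37, chr8:45999851-46000010, minus strand: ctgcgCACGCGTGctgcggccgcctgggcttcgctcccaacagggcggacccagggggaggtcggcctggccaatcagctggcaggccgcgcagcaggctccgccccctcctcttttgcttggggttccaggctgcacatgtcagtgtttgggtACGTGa
Bnip3, chr7:138909507-138909656, minus strand: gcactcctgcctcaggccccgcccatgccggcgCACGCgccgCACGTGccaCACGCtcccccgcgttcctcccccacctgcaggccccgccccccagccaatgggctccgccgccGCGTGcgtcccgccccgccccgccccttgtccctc
Car9, chr4:43506876-43507025, plus strand: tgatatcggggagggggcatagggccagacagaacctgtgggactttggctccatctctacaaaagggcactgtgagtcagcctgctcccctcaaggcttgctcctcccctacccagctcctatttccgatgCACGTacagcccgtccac
Hif1a, chr12:73907717-73907866, plus strand: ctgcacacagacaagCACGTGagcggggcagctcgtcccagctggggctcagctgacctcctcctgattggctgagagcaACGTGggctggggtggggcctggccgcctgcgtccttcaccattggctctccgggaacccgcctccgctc

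Adm held 2 matches, both as GCGTG on the opposite strand. Bnip3 held 5 and Ankrd37 held 4, of which 3 lie in the stretch printed. In Bnip3 and Hif1a a pair of matches overlap as CACGTG, which reads the same on both strands and is also the E-box letters bound by other factors. The Ankrd37 run CACGCGTG likewise joins 2 overlapping matches. Matches are letters and not measured binding sites, and the gene that rose (Hif1a) and a gene that did not pass (Egln1) also held them.

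**Figure D1:**
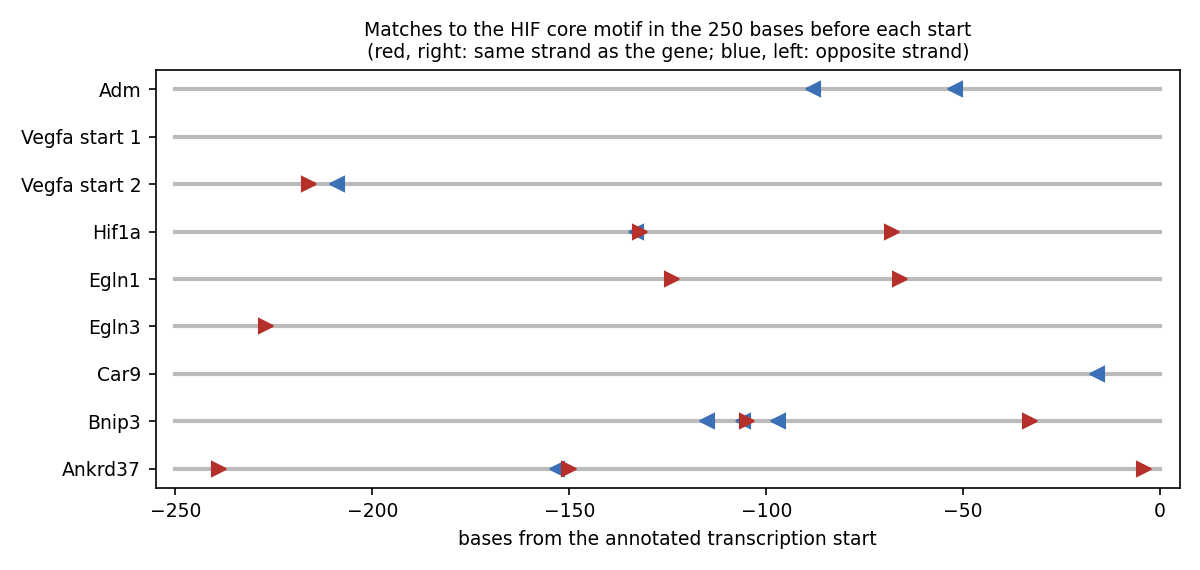
Positions of the searched motif in the 250 bases before each annotated start, by gene; the horizontal axis is the distance from the start in bases, and red arrowheads point right for the gene's own strand and blue ones left for the opposite strand. Each gene has at least 1 match, and the first Vegfa start has none.

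The first comparison asked how these genes changed between day 1, when estrogen prevails, and day 4, when progesterone prevails and the epithelium becomes ready for the embryo. Adm and most hypoxia targets fell steeply while Hif1a rose. Egln3 fell 166-fold, Ankrd37 48.0-fold, Adm 35.3-fold and Car9 14.9-fold at the leading probe set, which is the one with the highest mean log2 value, and Hif1a rose 3.96-fold. Of the 22 probe sets, 13 fell and 3 rose at an adjusted p under 0.05, against a background of 4.15% and 5.04% of all probe sets (9.19% together), and 6 did not pass. The WT days did not overlap for 20 of the 22, 16 lower and 4 higher, where 54.5% of all probe sets did not (22.1% lower, 32.4% higher). These are bulk samples, so fewer cells of a type and less RNA per cell cannot be told apart.

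Adm read 7960 and 4830 on the day 1 arrays, 186 and 163 in WT on day 4, and 179 and 952 in heterozygotes. Its signal was high on day 1 only, and 1 heterozygous array stood above the 3 other day 4 arrays. The fall from day 1 to day 4 in WT was -5.14 ± 0.86 (adjusted p = 0.0378). The other Adm probe set, of the x type that can share probes with other transcripts, read 6051 and 3767, then 225 and 142, then 152 and 792 (-4.73 ± 0.88, adjusted p = 0.0464). Both probe sets put the 6 arrays in the same order, with array 302 highest and array 284 lowest.

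Among genes that are no members, the 5 whose leading probe set was closest to Adm over the 6 arrays were Muc13, a transmembrane mucin, Tnfsf13os, Sting1, a sensor adaptor of innate immunity, Sfn (14-3-3σ) and Bcl3, a regulator of NF-κB. Closeness was the root mean squared difference of log2 values, each centred on its own mean, among 9106 leading probe sets with a mean signal of at least 200. It was 0.66 for Muc13 and 0.75 for Bcl3. The nearest member was Ankrd37 at 1.01, in rank 62, and Hif1a was at 3.19, in rank 8598. Between these lay Car9 in rank 127, Bnip3 in 152, Epas1 in 310, Ndrg1 in 456, Vegfa in 630, Egln3 in 682 and Egln1 in 2614. With 9106 probe sets compared, genes outside the set filled the 5 nearest places.

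Vegfa encodes the main growth factor for blood vessels. It read 3546 and 3004 on day 1, 996 and 1145 in WT on day 4, and 1411 and 1704 in heterozygotes. The day 1 arrays were highest and the heterozygous arrays lay between them and the WT day 4 arrays, without overlap. Vegfa fell from day 1 to day 4 by 1.61 ± 0.25 on the log2 scale (adjusted p = 0.0323), and its other probe set fell from 1234 and 1264 to 323 and 211 (-2.25 ± 0.30, adjusted p = 0.0247).

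The HIF-α mRNAs moved in opposite directions. Hif1a read 6320 and 5601 on day 1, 21287 and 26019 in WT on day 4, and 23362 and 23581 in heterozygotes, so that all day 4 arrays lay well above day 1. It rose by 1.98 ± 0.24 (adjusted p = 0.0201). A further pair of its probe sets rose as well, from 1046 and 970 to 7665 and 7472 (2.91 ± 0.28, adjusted p = 0.0138) and from 658 and 446 to 2625 and 2180 (2.14 ± 0.32, adjusted p = 0.0300). The fourth was dim, going from 49.0 and 64.1 to 171 and 77.6, with no call (1.03 ± 0.71, adjusted p = 0.425).

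Epas1, the HIF-2α gene, read 13492 and 14726 on day 1, 1905 and 2240 in WT on day 4, and 5308 and 4518 in heterozygotes. The 3 groups did not overlap, with day 1 highest and WT day 4 lowest. It fell by 2.77 ± 0.24 on the log2 scale (adjusted p = 0.0118). Its other probe set read 695 and 735 on day 1 against 39.6 and 7.44 on day 4 (-5.27 ± 0.94, adjusted p = 0.0429), a change that depends on the pseudocount because the day 4 signals are low (-3.81 with a pseudocount of 32). Epas1 is well known from blood vessel endothelium, so the endothelium markers are given beside it. Their summed signal over 11 genes was 392 and 480 on day 1, 1117 and 532 in WT on day 4, and 382 and 489 in heterozygotes, and it was not higher on day 1. None of the 11 fell with day, and Vwf rose from 1.31 and 6.02 to 104 and 97.0 (4.66 ± 0.59, adjusted p = 0.0222). On the day 1 arrays 9 and 8 of the 11 read below 50, so a fall with day could hardly have been seen. Array 277, with the highest sum, also had the highest median signal of all arrays. The part of endothelium in the Epas1 fall was not tested.

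The hydroxylases that act on the HIF-α proteins parted. Egln3, the inducible one, read 17053 and 15808 on day 1. In WT on day 4 it read 169 and 56.6, and in heterozygotes 138 and 87.3. No day 4 array came near the day 1 arrays. The fall was -7.37 ± 0.60 (adjusted p = 0.0113), or -6.95 with a pseudocount of 32. The other Egln3 probe set read 3296 and 3095 against 23.7 and 31.2 (-6.82 ± 0.98, adjusted p = 0.0282). Egln1, which sets the basal turnover of the HIF-α proteins, read 7032 and 7638 on day 1, 5021 and 7273 in WT on day 4, and 5702 and 6104 in heterozygotes. Its groups overlapped between the days in WT, and neither probe set passed (-0.28 ± 0.28, adjusted p = 0.579, and -0.11 ± 0.30, adjusted p = 0.857).

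The remaining targets were all lower on day 4. Ankrd37, an ankyrin repeat gene known as a HIF-1 target, read 3314 and 3307 on day 1 against 103 and 44.8 on day 4 and fell by 5.58 ± 0.44 on the log2 scale (adjusted p = 0.0113). Car9, a membrane carbonic anhydrase, read 802 and 1674 against 95.3 and 61.8 (-3.90 ± 0.48, adjusted p = 0.0212). Bnip3, a mitochondrial protein of mitophagy and cell death, read 8416 and 5636 against 905 and 977 (-2.87 ± 0.29, adjusted p = 0.0142). The heterozygous arrays read 76.3 and 75.6 for Ankrd37, 84.2 and 62.7 for Car9, and 917 and 866 for Bnip3. They lay within or close to the range of the WT day 4 arrays, far under day 1.

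Ndrg1, a stress-induced gene, had day 1 arrays that differed at all 5 probe sets. Its leading probe set read 6197 on array 302 and 3186 on array 303, then 1061 and 1392 in WT on day 4, and 980 and 962 in heterozygotes. The days did not overlap, but the change did not pass (-1.87 ± 0.40, adjusted p = 0.0631). Of its 5 probe sets 2 fell (-2.67 ± 0.48, adjusted p = 0.0444, and -2.70 ± 0.51, adjusted p = 0.0489) and 3 had adjusted p-values from 0.0512 to 0.0631. Array 302 read from 1.94 to 2.67 times as high as array 303 at these probe sets. Adm and Bnip3 were also higher on array 302 than on array 303, by 1.65 and 1.49 times, while Car9 was lower there (802 against 1674).

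**Figure D2:**
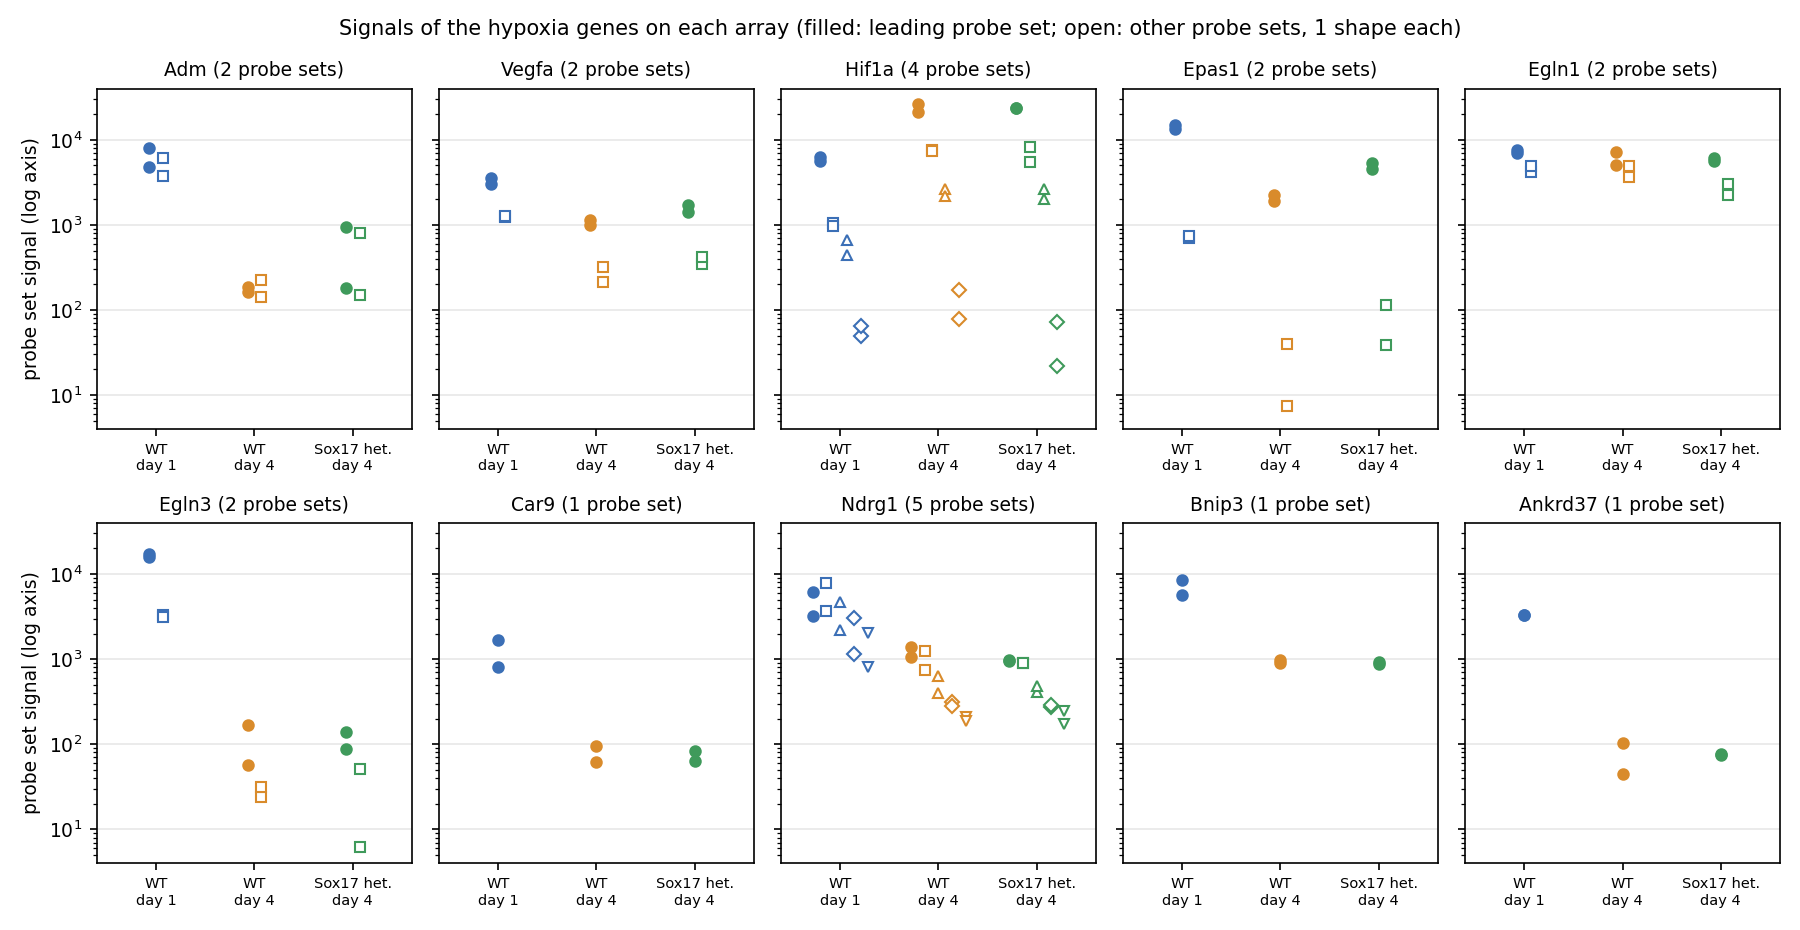
Signal of every probe set of the 10 genes on each of the 6 arrays, on a log axis, with 1 panel per gene; each point is an array, filled for the leading probe set and open for the others. Egln3, Ankrd37, Adm and Car9 drop from day 1 to both day 4 groups, Hif1a goes up, and Egln1 overlaps between the days.

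The calls of the day comparison rest on few degrees of freedom. Leaving out day 1 array 302 or 303, or heterozygous array 253 or 281, ended all 16 calls, because limma's default fit then called none of the 34945 probe sets (6285 to 7417 at an unadjusted p under 0.05). It called 8 member probe sets without WT array 277 and 7 without 284. When limma's prior variance was allowed to follow intensity (the intensity trend), 16 fell and 3 rose, against 9.64% and 11.1% of all probe sets (20.7% together), and leaving out any 1 array gave 19 or 20 calls. Those that fell were every probe set of Adm, Vegfa, Epas1, Egln3, Car9, Ndrg1, Bnip3 and Ankrd37, with adjusted p-values from 3.85e-07 (Egln3) to 0.000513 (Epas1). Over all probe sets the median change was 0.24, and 0.058 after quantile normalization or 0.026 after centring on the array median. These shifts are small beside the changes of the members that passed.

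Of the 9 measured epithelium markers 8 had negative changes between the WT days, where the median over all genes was 0.30. In the default fit Krt7 (-2.33 ± 0.23, adjusted p = 0.0138) and Elf3 (-1.25 ± 0.22, adjusted p = 0.0409) fell, and the intensity trend called 4 lower. Markers of other cell types that the preparation could hold were also read beside the falls of the members. The summed signal of 10 stroma markers was 3542 and 8973 on day 1, 1871 and 2848 in WT on day 4, and 504 and 918 in heterozygotes. For 9 macrophage markers it was 22692 and 21187, then 16969 and 17226, then 13793 and 14421, and for 6 smooth muscle markers 893 and 891, then 392 and 308, then 190 and 172. All 3 sums were lower on day 4. Most of the macrophage sum was Cd14, at 15709 and 14736 on day 1 and 13966 and 15491 in WT on day 4. The fall of the sum between the WT days rests on Cd68, at 6401 and 5746, then 224 and 157. Without Cd68 the sum was 16290 and 15441, then 16745 and 17069, then 13486 and 14253 in heterozygotes. In the default fit 1 macrophage marker (Cd68) and 1 smooth muscle marker (Acta2) fell, 2 macrophage markers (Lyz2 and C1qa) rose, and no stroma marker passed. Of all genes the default fit called 5.96% higher and 4.58% lower. Changes were positive for 6 of 9 macrophage and 5 of 10 stroma markers, beside the positive median over all genes. The intensity trend called 3 stroma markers lower, Col1a2 (adjusted p = 0.0153), Dcn (0.0263) and Lum (0.0351), where it called 10.6% of all genes lower. The neutrophil sum over 6 markers lay between 73.2 and 286 and the erythrocyte sum over 3 markers between 19.5 and 254 on all arrays. Their part in the members' falls was not tested.

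The second comparison asked whether loss of 1 normal Sox17 allele changed these genes on day 4. No member passed. Of the 22 probe sets, 0 were called, against 0 of all 34945, and at an unadjusted p under 0.05 there was 1 member (Epas1) among 4186 probe sets. Egln3, Car9, Bnip3, Ankrd37 and the 3 brighter Hif1a probe sets had changes between -0.55 and 0.16, and the 5 Ndrg1 probe sets between -0.32 and 0.046. A p that misses the threshold does not show that the genotypes were alike, and the SE of these changes ran from 0.24 for Hif1a to 0.98 for Egln3.

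Epas1 and Vegfa were the genes whose heterozygous arrays both lay above both WT arrays at the leading probe set. At 5308 and 4518 against 1905 and 2240, Epas1 was 2.37-fold higher in heterozygotes (1.24 ± 0.24, adjusted p = 0.247). The intensity trend called it (adjusted p = 0.00369), the single member probe set it called of 22, against 2.37% of all probe sets (1.34% higher, 1.03% lower). With 1 array left out, the lone array of its group is assumed to vary like the other groups. The call was lost without heterozygous array 253 (difference 1.13) and after centring on the array median (1.52, adjusted p = 0.213). With 1 array left out the difference ran from 1.13 to 1.36. Day 1 arrays 302 and 303 do not enter this comparison. Without either of them the difference stayed at 1.24 and only its spread was estimated anew, so these fits do not test it. The other Epas1 probe set read 115 and 38.3 against 39.6 and 7.44, with overlap (1.86 ± 0.94, adjusted p = 0.488). Summed endothelium markers were 382 and 489 in heterozygotes against 1117 and 532 in WT, and so were not higher. In heterozygotes 9 and 7 of the 11 read below 50, so these sums say little about endothelial content. All 10 stroma markers, 8 of 9 macrophage, 10 of 11 endothelium and 5 of 6 smooth muscle markers had negative differences. The median over all genes was also negative, at -0.20, and the share of all genes with a negative difference was not computed. None of these markers passed in the default fit. The intensity trend called the stroma marker Col3a1 (-3.16, adjusted p = 0.0304), where it called 1.41% of all genes lower. Their part in the members' differences was not tested. Vegfa differed by 0.54 ± 0.25 (adjusted p = 0.468) at the leading probe set and 0.54 ± 0.30 (adjusted p = 0.517) at the other.

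Adm set the heterozygous arrays apart from each other. Array 281 read 952 and array 253 read 179, a ratio of 5.31, and the other Adm probe set gave 5.22, while the WT arrays read 186 and 163. The mean difference of 1.24 ± 0.86 (adjusted p = 0.582) rests on array 281. Without array 281 it was 0.040, and without array 253 it was 2.44. The intensity trend gives that value an adjusted p of 0.00633, but it sets array 281 alone against WT, with the spread taken from the other groups. The only wider heterozygous pair among the 22 probe sets was that of the dim Egln3 probe set, at 51.1 and 6.15.

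Some members had lower values in heterozygotes. The second Egln1 probe set read 2272 and 3035 against 4922 and 3636 (-0.69 ± 0.30, adjusted p = 0.454). Without WT array 284 it was -0.91 (adjusted p = 0.0493 with the intensity trend), where array 277 alone stands for WT and is assumed to vary like the other groups. The leading Egln1 probe set, at -0.035 ± 0.28, did not share that difference. Groups did not overlap for 6 of the 22 probe sets, 3 higher and 3 lower, against 46.4% of all probe sets (18.4% higher, 28% lower). The direction of small differences depended on scaling, since the median over all probe sets was -0.18. Array 277 had the highest median (138) at the same trimmed mean of 500. On it 27.0% of probe sets read below 50, against 41.6% to 44.6% on the other arrays. Bright probe sets were not all higher there, since the leading Hif1a probe set read 21287 on array 277 and 26019 on array 284. Hif1a, Car9 and Bnip3, at -0.0039, -0.078 and -0.077, turned positive after centring (0.27, 0.20 and 0.20).

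**Figure D3:**
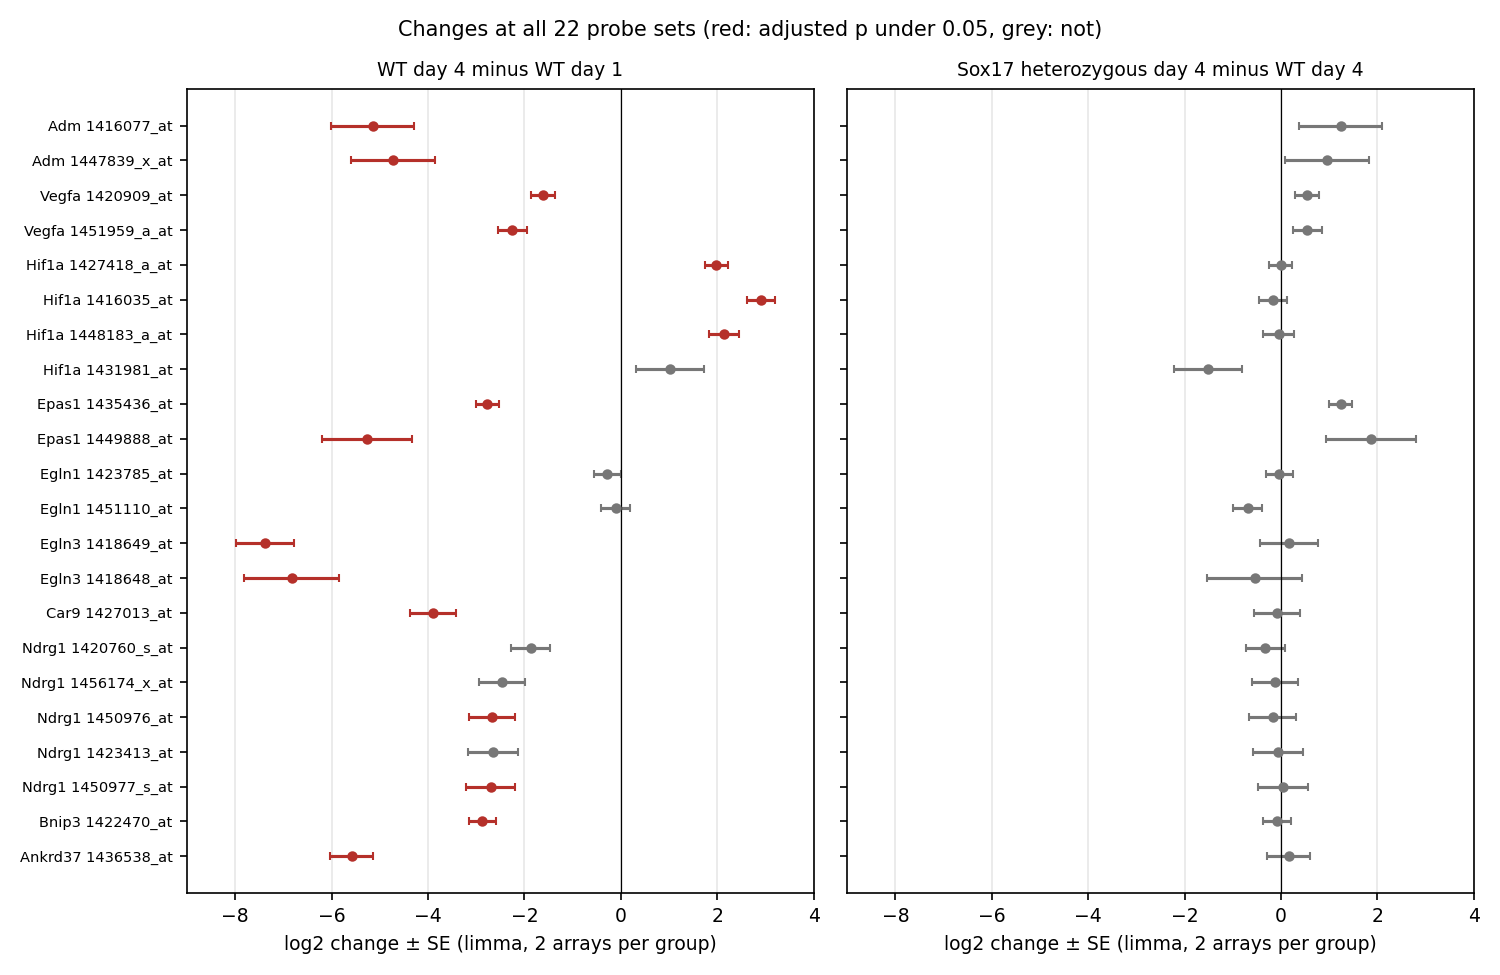
Log2 change ± SE (limma, 2 arrays per group) at all 22 probe sets, from day 1 to day 4 in WT on the left and from WT to Sox17 heterozygous on day 4 on the right; red marks an adjusted p under 0.05. On the left 13 probe sets fall and 3 rise, and on the right none passes, with Epas1 and Adm farthest to the right.

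The third comparison, heterozygotes on day 4 against WT on day 1, mixes day with genotype and shares arrays with both others. Of the 22 probe sets 3 rose (Hif1a) and 7 fell, against 3.18% and 2.89% of all probe sets (6.07% together). Egln3 (-7.21, adjusted p = 0.0155), Ankrd37 (-5.43, 0.0151), Car9 (-3.98, 0.0260) and Bnip3 (-2.95, 0.0192) fell, beside -7.37, -5.58, -3.90 and -2.87 from day 1 to day 4 in WT. Adm differed by -3.90 ± 0.86 and did not pass (adjusted p = 0.0810), nor did Vegfa (-1.07 ± 0.25, adjusted p = 0.0893). Epas1 fell by 1.53 ± 0.24 on the log2 scale (adjusted p = 0.0413), beside -2.77 in WT. The default fit called none without array 302, 303, 253 or 281 and 8 without 277 or 284, and the intensity trend called 20, 3 higher and 17 lower, against 17.1% of all probe sets (9.21% and 7.92%).

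Other genes of the pathway were read from lists, 1 leading probe set per gene. Over all genes read this way 5.96% rose and 4.58% fell between the WT days. Of 15 regulators of the HIF proteins none passed in the default fit on day 4 against day 1, with a median of 0.22 against 0.30 over all genes. Arnt, the shared partner, was at 0.10 ± 0.35 (adjusted p = 0.886), Vhl at 0.36 ± 0.22 (0.371) and Hif1an, the asparagine hydroxylase, at 0.17 ± 0.22 (0.672). Nearest to the threshold were Egln2, the remaining prolyl hydroxylase (1.2 ± 0.23, adjusted p = 0.0522), the ubiquitin ligase Siah1a (1.17 ± 0.26, 0.0662), the VHL complex subunit Rbx1 (2.11 ± 0.56, 0.0968) and the HIF inhibitor Cited2 (-1.14 ± 0.35, 0.130). The day 1 signals of Rbx1 were low, at 38.4 and 12.5. The intensity trend called Egln2 (adjusted p = 0.00033) and Siah1a (0.000742) higher and Cited2 (0.00506) lower. Of all genes it called 13.7% higher and 10.6% lower, so the count among the 15 regulators does not exceed that share.

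Of 17 glycolysis targets 9 fell and 2 rose, with a median of -1.67. Slc2a1, the basal glucose transporter, read 8641 and 6559 on day 1 and 1344 and 1446 on day 4 (-2.43 ± 0.25, adjusted p = 0.0150), and the glycolytic enzyme Aldoa fell (-2.28 ± 0.21, adjusted p = 0.0131). The other way, the glucose transporter Slc2a3 read 6.95 and 32 on day 1 and 22651 and 22563 on day 4 (10.45 ± 0.72, adjusted p = 0.0101), and Pfkfb3, a regulator of glycolysis, rose (3.42 ± 0.26, adjusted p = 0.0106). Slc2a1 and Slc2a3 thus moved in opposite directions. The day 1 signals of Slc2a3 are low, so the size of its rise depends on the pseudocount.

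Of 28 other targets 10 fell and 1 rose, with a median of -1.15. The transferrin receptor Tfrc read 6324 and 6749 on day 1 and 467 and 431 on day 4 (-3.86 ± 0.27, adjusted p = 0.0102). The oxidoreductase Ero1a (-3.82 ± 0.29, adjusted p = 0.0106) and the carbonic anhydrase Car12 (-3.47 ± 0.26, adjusted p = 0.0106) fell as well. The 1 that rose was Hilpda, a lipid droplet protein, from 212 and 243 to 3294 and 4300 (4.05 ± 0.26, adjusted p = 0.00905).

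Of 10 genes around adrenomedullin 3 fell and 1 rose. Its receptor is CALCRL with RAMP2 or RAMP3. Calcrl (-0.77 ± 1.00, adjusted p = 0.672) and Ramp2 (-0.28 ± 0.41, 0.713) did not pass, and Ramp3 fell from 169 and 154 to 18.5 and 10 (-3.47 ± 0.39, 0.0177). The scavenger receptor Ackr3, which takes up adrenomedullin, fell from 1837 and 653 to 40.7 and 33.7 (-4.85 ± 0.55, adjusted p = 0.0179), and the related peptide Adm2 fell (-3.20 ± 0.55, 0.0401) at low signals. Mme, a peptidase that can cleave adrenomedullin, read 50.1 and 33.7 on day 1 and 19902 and 22179 on day 4 (8.96 ± 0.28, adjusted p = 0.00677), from low day 1 signals. Pam, which amidates the peptide, was at -1.45 ± 0.33 (0.0687), and the intensity trend called it lower (adjusted p = 0.000711). Adm, Ramp3 and Ackr3 thus read higher on day 1 than in WT on day 4, and Mme read higher on day 4. Ramp3 was dim even on day 1, when the array medians were 78.0 and 76.7, and Calcrl read 55.8 and 195 there.

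Of 12 genes of the VEGF system 1 rose and 1 fell. Pgf, placental growth factor, rose from low day 1 signals of 12.5 and 3.74 (5.18 ± 0.74, adjusted p = 0.0278) and Flt1, a receptor of VEGF-A, fell from 1661 and 1212 to 66.7 and 36.9 (-4.81 ± 0.76, adjusted p = 0.0334). Kdr, the main signalling receptor (0.23 ± 0.89, adjusted p = 0.896), Vegfb (0.73 ± 0.51, 0.433) and Angpt2 (1.32 ± 0.34, 0.0908) did not pass.

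Between genotypes on day 4 none of the list genes passed. Hilpda stood at 533 and 586 on the heterozygous arrays and at 3294 and 4300 on the WT ones (-2.75 ± 0.26, adjusted p = 0.192), and Tfrc 3513 and 2482 against 467 and 431 (2.71 ± 0.27, adjusted p = 0.192). P4ha2, a collagen prolyl hydroxylase, was at 2.54 ± 0.32 (adjusted p = 0.192), Pdk1, an inhibitor of pyruvate use, at 1.24 ± 0.28 (0.281) and Slc2a1 at 1.10 ± 0.25 (0.285), with Aldoa at 0.52. The intensity trend called 10 list genes, where it called 1.7% of all genes higher and 1.41% lower. Tfrc, P4ha2, Pdk1, Slc2a1, Ddit4, Bhlhe40 and Ier3 were higher and Hilpda, P4ha1 and Mxi1 lower, with adjusted p-values from 8.98e-05 (Tfrc) to 0.0309 (Mxi1). Ddit4, Bhlhe40, Ier3, P4ha1 and Mxi1 are named to complete the count, after their values were seen. P4ha1, at -2.10 ± 0.36, differed the other way from P4ha2, which also makes a collagen prolyl hydroxylase subunit. The heterozygous arrays lay between WT day 4 and WT day 1 in 7 of the 10, all but P4ha2, P4ha1 and Mxi1, as they did in Epas1. The share over all genes was not computed. The 10 were called against the same WT day 4 arrays that bound this range, so the count is not a test of a return towards day 1. Of the regulators, Siah1a was at -0.71, Hif3a at 0.73 and Arnt2 at -0.84, and of the other lists Adm2 at 2.13, Ramp2 at -1.29, Ramp3 at 0.77, Vegfd at -2.02, Vegfc at -3.25 and Kdr at -1.71. None of these 9, nor Aldoa, passed by either fit. Adm2, Ramp2, Ramp3, Vegfd, Vegfc and Kdr each read below 50 on some day 4 array, so the size of their differences depends on the pseudocount.

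**Figure D4:**
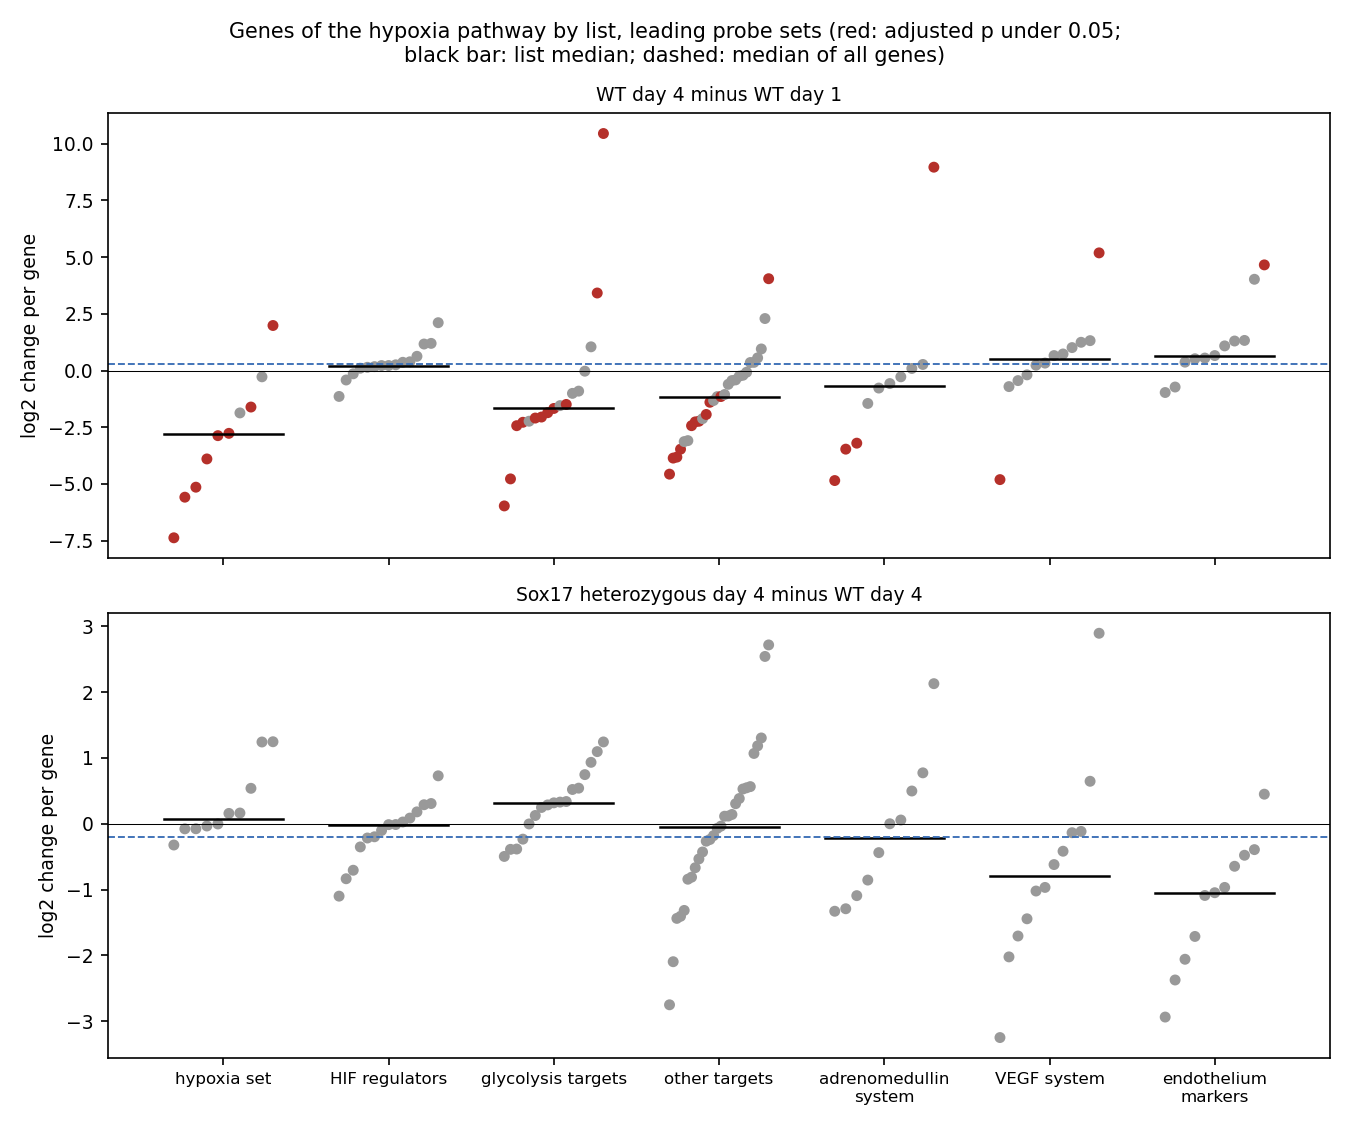
Log2 change per gene at the leading probe set, by list, from day 1 to day 4 in WT above and from WT to Sox17 heterozygous on day 4 below; red marks an adjusted p under 0.05, black bars are list medians and the dashed line is the median of all genes. In the upper panel the hypoxia set and both target lists lie mostly under the dashed line, and in the lower panel no gene is red.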

How the data were processed

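The authors deposited 1 table of probe set intensity values (signal, linear scale) for 6 Affymetrix arrays. The submitters' processing notes name Affymetrix Expression Console, Transcriptome Analysis Console and RMA, without saying which made the values. Every array has a trimmed mean of 500 with 2% cut at each end, so the values were scaled before deposit. RNA (100 ng of total RNA from Trizol extraction) was amplified and labelled with biotin, per the labels' protocols. The number of arrays limits the precision, and an exact two-sided permutation test of 2 arrays against 2 gives at least 0.333.

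Of 45101 probe sets, 34945 have 1 gene symbol in the platform annotation, 932 have several, 9160 have none listed and 64 are controls. Annotation IDs of 34741 were in the RefSeq table (GRCm38.p6), with no symbol changed. log2(signal + 1) values of all 6 arrays were fitted with limma 3.58.1 (R 4.3.3; lmFit and eBayes), with a coefficient per group and Benjamini-Hochberg adjustment over the 34945, called under 0.05. The fit was tested on simulated data. The leading probe set of a gene has the highest mean log2 value. Named list genes are the 4 of smallest p per list for day and the 3 for genotype, plus Arnt, Vhl, Hif1an, Calcrl, Ramp2, Ramp3, Pam, Kdr and Flt1; the 5 nearest to Adm need a mean signal of 200. Members and lists were chosen with earlier results of these data known. Alternatives were quantile normalization, centring, a pseudocount of 32, no dim probe sets, an intensity trend, 4 arrays, 1 probe set per gene and leaving out each array.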

Additional observations from a re-analysis of the deposited data

How the results depend on the processing

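Of the 22 probe sets, 16 were called between WT days. The count was 18 after quantile normalization, 13 centred on the array median and 19 with a pseudocount of 32, without the dimmest probe sets or with the intensity trend. It was 0 with only the 4 arrays compared (7417 of all probe sets at an unadjusted p under 0.05) and 8 of 10 with 1 probe set per gene, and 0 to 8 with 1 array left out. In the trend fits added after seeing the data it was 19 to 20 with 1 array left out, 19 with quantile normalization and 18 centred. Between genotypes the count was 0, and 1 with the trend, 1 to 2 with the trend and 1 array left out, 1 with trend and quantile normalization and 0 centred, while limma's default called 0 with any 1 array left out (4186 of all probe sets were at an unadjusted p under 0.05 with all arrays). For heterozygotes against WT day 1 the count was 10, and 6 centred, 19 with a pseudocount of 32, 18 without the dimmest probe sets, 20 with the trend, 0 to 8 with 1 array left out, 18 to 20 with the trend and 1 array left out, 20 with trend and quantile normalization and 16 with trend and centring.

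Signs turned only for differences that did not pass. Between genotypes, quantile normalization gave 0.099 for the leading Hif1a probe set, 0.072 for the dimmer Egln3 probe set and 0.41 for Car9. Centring gave 0.27, 0.11 and 0.23 for the 3 brighter Hif1a probe sets in order of mean log2 value, 0.24 for the leading Egln1 probe set, 0.20 for Car9, 0.15, 0.099 and 0.21 for the Ndrg1 probe sets that follow the leading one in mean log2 value, and 0.20 for Bnip3. With 1 array left out the genotype difference ran from -0.24 to 2.14 for the second Adm probe set, -0.15 to 0.14, -0.45 to 0.13 and -0.24 to 0.15 for those Hif1a probe sets, -0.30 to 0.23 for the leading Egln1 probe set, -0.62 to 0.94 and -1.98 to 0.89 for the leading and the dimmer Egln3 probe set, -0.39 to 0.23 for Car9, -0.49 to 0.25, -0.52 to 0.17, -0.14 to 0.010 and -0.20 to 0.30 for the Ndrg1 probe sets other than the leading one, in order of mean log2 value, and -0.43 to 0.75 for Ankrd37. The day change of the second Egln1 probe set ran from -0.32 to 0.11, and that of the dimmest Hif1a probe set in heterozygotes against WT day 1 from -1.31 to 0.34. The cause was not tested. No paired analysis was possible because the groups share no replicate numbers. Signals under 50 limit the size of the changes of Egln3, Epas1 and Ankrd37 on day 4, and of Slc2a3, Mme and Pgf on day 1.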
